A study of Mus musculus with 4 samples.

Results

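The genes described here encode microtubule motors, the tubulins they walk on, and regulators of both. They were taken as every gene whose symbol marks a kinesin (Kif, Kifc), a tubulin (Tuba, Tubb, Tubg), a chain of cytoplasmic dynein (Dync, Dynll, Dynlrb, Dynlt), a dynactin subunit (Dctn), a stathmin (Stmn) or an end-binding protein (Mapre), on probe sets annotated to a single gene. This gave 53 genes of 8251 on the array, read by 74 probe sets, and each gene is represented by its probe set with the highest mean signal. The members are 20 kinesins, 13 tubulins, 3 cytoplasmic dynein chains, 5 dynein light chains, 5 dynactin subunits, 4 stathmins and 3 end-binding proteins. Of these, 46 had a mean signal of at least 200 and were tested, and 7 did not reach it.

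Whole testis RNA was read on 4 Affymetrix mouse expression arrays, 2 from Tslc1+/+ (wild-type) and 2 from Tslc1-/- (mutant) males. All were C57BL/6J and 16 weeks old. Tslc1, now named Cadm1, encodes an immunoglobulin-like cell adhesion molecule, and the comparison asked how testis transcripts differ when it is disrupted. How the allele was made, which part of the gene is missing, and whether an array held RNA of a single animal or of pooled animals are not given in the sources used here. P-values therefore reflect only array-to-array spread within a genotype, part of which may be technical. The fit draws each gene's own spread toward that of probe sets of similar signal.

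Microtubules are hollow polymers of alpha and beta tubulin. Gamma tubulin seeds their growth, kinesins mostly walk toward the growing plus end, and cytoplasmic dynein, helped by dynactin, walks toward the minus end. In the testis, microtubules form the meiotic spindles of spermatocytes, the manchette that shapes the spermatid head, the core of the sperm tail, and the tracks along which Sertoli cells carry spermatids.

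The array medians lay between 361.5 and 378.0 signal units. Cadm1, the targeted gene, read 3450 and 4028 in wild-type and 775.9 and 604.5 in mutant testis. Germ cell and somatic testis markers ranged widely in signal. Mean signals were 64782 for Ldhc of spermatocytes and 16897 for Clu of Sertoli cells. Sycp3 lay between 6.8 and 20.9 and the macrophage marker Ptprc between 8.0 and 40.0. Detection calls were not used, so the presence of a marker was not tested. The 13 elongating spermatid markers summed to 616512 and 623758 signal units in Tslc1+/+ and to 454070 and 426861 in Tslc1-/-, with 6 of 13 lower past the test and none higher. The 9 round spermatid markers on the array summed to 205201 and 212650 in wild-type and to 145459 and 145482 in mutant testis, with 4 lower past the test. For the 11 Sertoli cell markers on the array the sums were 34325 and 33537 in wild-type and 33452 and 34017 in mutant testis. In whole-tissue RNA, fewer cells of a type and less RNA per cell cannot be told apart.

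Among the 46 tested members, 1 fell and none rose in Tslc1-/- testis (limma on log2(signal + 50), Benjamini-Hochberg adjusted p under 0.05). The gene that fell was Dynll1, which encodes the LC8 dynein light chain. Over all 5992 tested genes the same rule called 0.968% lower and 0.267% higher, and a single called member is too few to set apart from that background. At an unadjusted p under 0.05 there were 6 members (13%), all with negative changes, against 10.5% of all tested genes.

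The members as a group lay close to no change. Their median log2 change was -0.06, with a middle range from -0.28 to 0.13, while all tested genes had a median of 0.02 and a middle range from -0.20 to 0.23. Changes were negative for 30 members and positive for 16, a negative share of 65.2% against 47.5% over all tested genes. Both Tslc1-/- arrays lay below both Tslc1+/+ arrays for 13 members (28.3%), against 18.8% of all tested genes, and above them for 7 members (15.2%), against 21.9%. The other 26 members had overlapping genotypes.

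**Figure D1:**
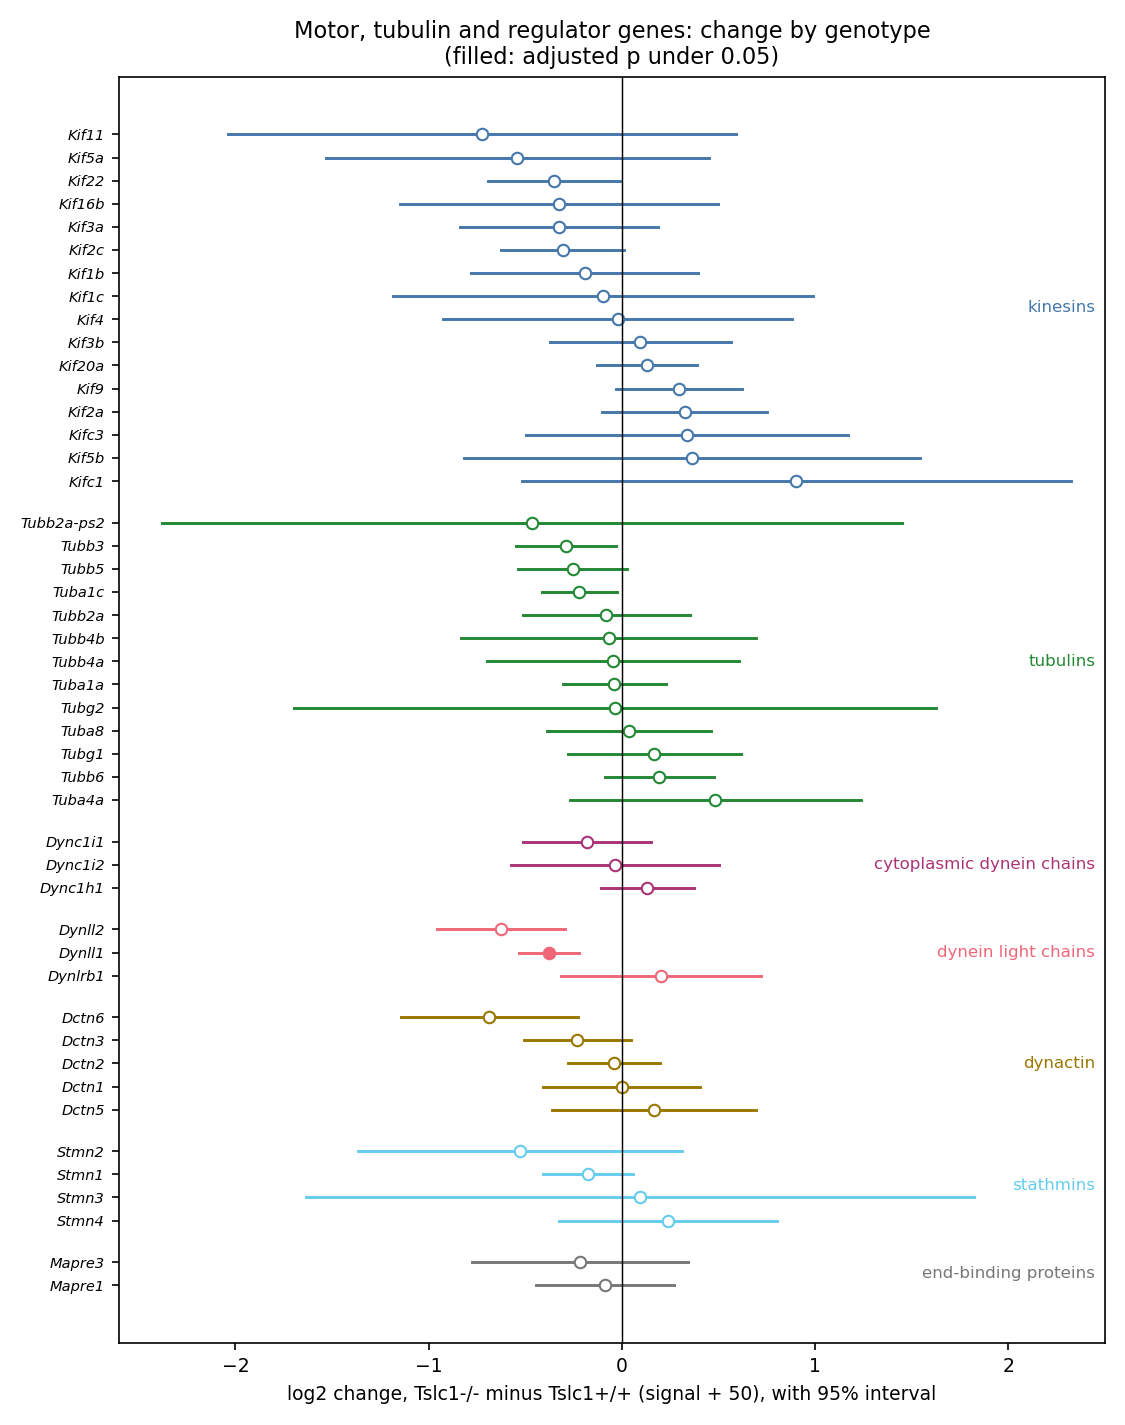
Log2 change of each tested member, Tslc1-/- minus Tslc1+/+ on the log2(signal + 50) scale (x axis), by gene and class (y axis), with bars for the 95% limma interval and a filled point where the adjusted p was under 0.05. Dynll1 at -0.38 is the filled point, 6 intervals (Dynll1, Dynll2, Dctn6, Kif22, Tuba1c and Tubb3) lie wholly below 0, and the widest bars belong to dim genes such as Tubb2a-ps2 and Stmn3.

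How tightly a change was bounded differed among members. For 33 of the 46, the 95% interval lay within a 2-fold change in either direction, and for the other 13 it reached beyond it. The within-genotype SD of log2 values had a median of 0.35 for the 20 members with a mean signal under 1000, of 0.14 for the 18 members from 1000 to 5000, and of 0.12 for the 8 members above 5000. In these 3 bands, the members' median changes were -0.04, -0.08 and -0.11, against 0.01, 0.04 and -0.03 for all tested genes of the same band. In the brightest band 8.45% of all tested genes were called, in either direction, and 1 of 8 members was.

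**Figure D2:**
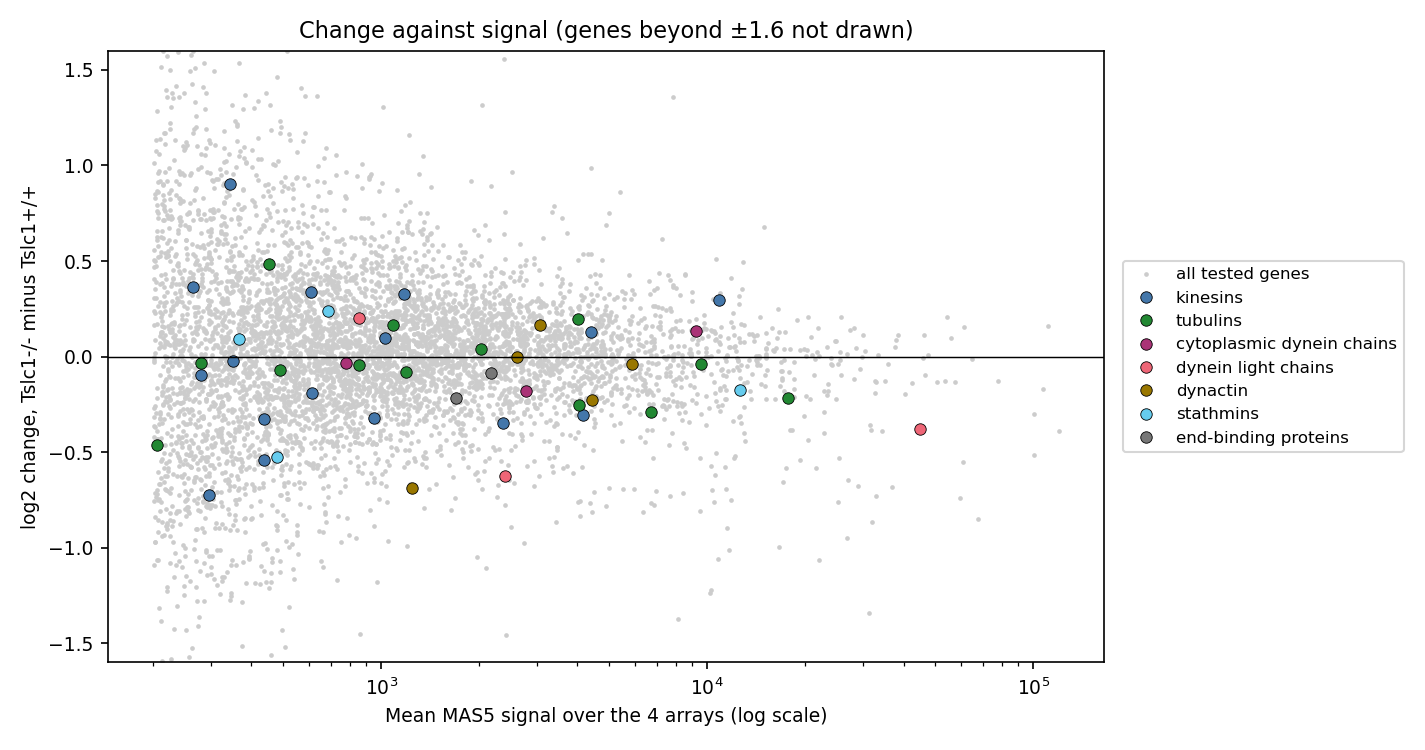
Log2 change, Tslc1-/- minus Tslc1+/+ (y axis), against the mean signal over the 4 arrays on a log scale (x axis), for all tested genes (grey) and the tested members coloured by class. Most members lie among the grey points, with Dynll1 the rightmost member at a mean signal of 44970.

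Among the 7 classes, the 3 tested dynein light chains had the median change furthest from 0, at -0.38. With the dim Tctex-type chains let in by dropping the signal filter, that median was 0.20. Dynll1 and Dynll2 encode near-identical LC8 light chains, small dimers that bind the dynein intermediate chain and many other partners. Dynll1 read 51462 and 50157 in wild-type and 38610.0 and 39651 in mutant testis. Both mutant arrays were lower, and the gap between genotypes was far wider than that between arrays of a genotype. The means were 50810 ± 923 and 39130 ± 736 (SD, n = 2 each). Dynll1 fell by 23.0%, or by 0.38 on the log2 scale (SE 0.07, 95% interval -0.53 to -0.22, limma adjusted p = 0.0315).

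This call was near the threshold. With any 1 array left out, the change stayed between -0.36 and -0.40. The call was lost each time, in fits with 1 array in a genotype. Over all alternatives the limma adjusted p ran from 0.00235 to 0.638, the latter without the intensity trend. Without that trend 0 of the 5992 tested genes were called, so the loss there was not particular to Dynll1. The call was also lost without the signal filter (limma adjusted p = 0.226) and with equal array medians (0.0532). The only Dynll1 probe set on the array has a suffix by which Affymetrix marks probes shared with related transcripts. The spermatid marker sums given above moved in the same direction, and their part in the Dynll1 result was not tested.

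Dynll2 read 2742 and 3076 in wild-type and 1807 and 1932 in mutant testis. Both mutant arrays again lay below both wild-type arrays. The log2 change was -0.62 (SE 0.15, 95% interval -0.95 to -0.29), with an unadjusted p of 0.00184 that missed the threshold over the whole table (limma adjusted p = 0.102). The second Dynll2 probe set read 871.4 and 770.1 against 563.0 and 600.8, a change of -0.46 (limma adjusted p = 0.597). Its genotypes did not overlap either, so the 2 probe sets of this gene pointed the same way. The first Dynll2 probe set carries no cross-hybridisation suffix. The second carries one, as does that of Dynll1, and may not measure Dynll2 alone.

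Dynlrb1, a roadblock light chain that binds another site on the intermediate chain, did not share this pattern. It read 883.5 and 701.1 in wild-type and 970.0 and 858.4 in mutant testis, so the genotypes overlapped. The log2 change was 0.20, with a 95% interval from -0.32 to 0.72 (limma adjusted p = 0.823). The Tctex-type chains Dynlt1b and Dynlt3 were too dim to test. Dynlt1b read 48.7 and 21.3 in wild-type and 135.7 and 111.9 in mutant testis, and Dynlt3 read 53.7 and 66.7 against 139.1 and 142.6. Both Tctex-type genes were higher on both mutant arrays, and neither passed when the signal filter was dropped (limma over all probe sets, adjusted p = 0.584 and 0.734).

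The upstream sequences of Dynll1 and Dynlrb1 are shown as those of a light chain gene that fell and one that did not pass. Each line gives the 250 bases before the annotated start, 5′ to 3′ on the gene's strand, from RefSeq on GRCm38.p6. Dynll1 is at chr5:115300991-115301240 on the minus strand, and Dynlrb1 at chr2:155236283-155236532 on the plus strand, the first of its 2 windows in the table. Capitals mark matches on either strand to the GC box GGGCGG, the CCAAT box, the cAMP response element core TGACG or the E-box CACGTG.
Dynll1: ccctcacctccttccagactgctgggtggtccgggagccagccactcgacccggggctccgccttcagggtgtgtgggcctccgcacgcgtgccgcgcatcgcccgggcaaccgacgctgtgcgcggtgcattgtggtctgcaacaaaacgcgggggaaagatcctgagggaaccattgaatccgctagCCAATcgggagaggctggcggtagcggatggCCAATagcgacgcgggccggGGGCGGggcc
Dynlrb1: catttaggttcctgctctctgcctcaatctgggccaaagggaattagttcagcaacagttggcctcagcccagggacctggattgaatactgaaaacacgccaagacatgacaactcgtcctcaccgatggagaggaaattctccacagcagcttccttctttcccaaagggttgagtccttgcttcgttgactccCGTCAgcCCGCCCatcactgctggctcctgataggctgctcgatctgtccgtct

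The Dynll1 window was 68.8% G and C. It held a pair of CCAAT boxes, starting 61 and 30 bases before the start, and a GC box at 10 bases, and neither TGACG nor CACGTG was in it. The Dynlrb1 window, at 53.2% G and C, held TGACG on the opposite strand at 54 bases and a GC box at 47 bases. RefSeq lists a second Dynlrb1 start, whose window held TGACG at 129 bases and GC boxes at 122 and 47 bases. Among 32851 such windows in the table, 33.8% held CCAAT, 32.7% GGGCGG, 17.8% TGACG and 6.02% CACGTG. Windows were found for 38 of the 53 members, with Dynll2 and Dctn6 not among them. Taking the first window of each gene, 3 motifs were in a larger share of these members than of all genes. GGGCGG was in 50% (19 members) against 32.9%, TGACG in 47.4% (18) against 17.9% and CCAAT in 44.7% (17) against 34.5%. CACGTG was in 7.89% against 6.05%, which rests on 3 members, too few to set apart. The median G and C content was 57.4% in members and 52% in all genes. Such a match is a description of letters and does not show that a factor binds there.

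The core chains of cytoplasmic dynein did not pass the test, and none had an unadjusted p under 0.05 (limma). Dync1h1, the heavy chain that carries the motor, read 9180 and 8459 in wild-type and 10406 and 8983 in mutant testis. The genotypes overlapped, and the log2 change of 0.13 had a 95% interval from -0.11 to 0.37 (limma adjusted p = 0.750). Dync1i1 and Dync1i2 encode intermediate chains, the scaffold to which light chains and dynactin attach. Dync1i1 read 3260 and 2664 against 2596 and 2601, both lower, a change of -0.18 with an interval from -0.51 to 0.15. Dync1i2 read 884.6 and 696.1 against 724.3 and 806.8, a change of -0.04 with an interval from -0.58 to 0.50. The 3 core chains had a median change of -0.04, and their intervals all lay within a 2-fold change.

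**Figure D3:**
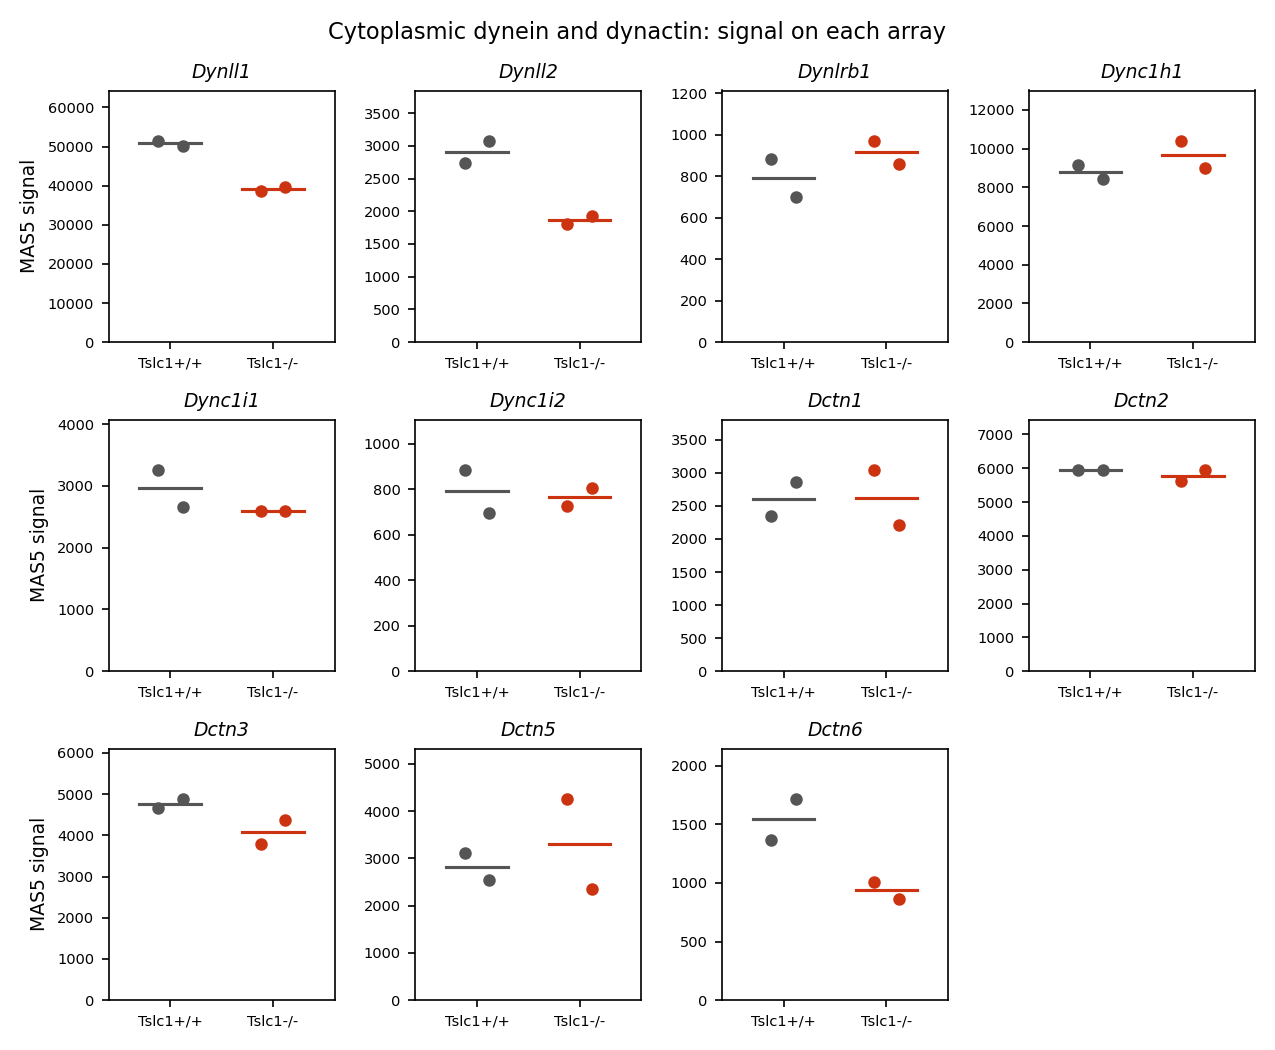
MAS5 signal on each array (y axis, from 0, scaled per gene) for the tested cytoplasmic dynein and dynactin genes, with Tslc1+/+ in grey and Tslc1-/- in red (x axis), points for arrays and lines for means of 2 arrays. Dynll1, Dynll2 and Dctn6 show a clear gap between genotypes, while Dync1h1, Dctn1, Dctn2 and Dctn5 overlap.

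Dynactin is the multi-subunit adaptor that links dynein to cargo and makes it processive. None of its 5 measured subunits passed (limma), 1 had an unadjusted p under 0.05, and their median log2 change was -0.04. Dctn6, a subunit of the pointed-end complex that caps the dynactin filament, read 1367 and 1718 in wild-type and 1012 and 861.8 in mutant testis. Both mutant arrays were lower, and the change of -0.69 (SE 0.21, 95% interval -1.14 to -0.23) missed the threshold (limma adjusted p = 0.213, 0.0914 to 0.587 over its alternatives). Dctn5, its partner in the same complex, read 3107 and 2547 against 4262 and 2346, a change of 0.17. The Tslc1-/- arrays of Dctn5 lay on either side of both wild-type arrays, so the 2 pointed-end subunits had no common direction.

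The shoulder and sidearm subunits of dynactin varied less. Dctn3 read 4658 and 4885 in wild-type and 3784 and 4361 in mutant testis, a log2 change of -0.23 without overlap (limma adjusted p = 0.607). Dctn2, or dynamitin, read 5951 and 5932 against 5623 and 5940, a change of -0.04 with an interval from -0.28 to 0.20. Dctn1, the large p150-Glued subunit that binds microtubules, read 2353 and 2863 against 3046 and 2207, and its change was below 0.01 in size. For Dctn1 and Dctn2 the genotypes overlapped, and the arrays of Dctn1 differed more within a genotype than between genotypes.

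None of the 16 tested kinesins passed (limma) and 1 had an unadjusted p under 0.05, with 9 negative and 7 positive changes between -0.72 and 0.90 and a median of -0.06. Only 9 of the 16 had an interval within a 2-fold change. Kif9, a kinesin of motile cilia and the sperm tail, read 8074 and 11555 in wild-type and 12070 and 11684 in mutant testis. Its change of 0.30 (95% interval -0.03 to 0.62, limma adjusted p = 0.554) had the opposite sign on its second probe set, which read 6753 and 6909 against 4881 and 6270 and had a change of -0.30. No direction can be given for Kif9 from these arrays.

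The other transport kinesins carry vesicles, organelles and, in cilia, intraflagellar transport trains. Kif3a and Kif3b, the motor subunits of heterotrimeric kinesin-2, had changes of -0.32 and 0.10. Kif3a read 989.4 and 1122 in wild-type and 966.3 and 715.1 in mutant testis, and Kif3b read 939.0 and 1033 against 955.1 and 1169. Kif5a and Kif5b, heavy chains of conventional kinesin, had changes of -0.54 and 0.36. Kif5a read 425.5 and 597.8 against 523.6 and 204.1, and Kif5b read 269.8 and 180.4 against 253.8 and 351.9. These pairs thus differed in sign, and for each gene but Kif3a the genotypes overlapped. Kif1b, Kif1c and Kif16b had changes of -0.19, -0.10 and -0.33, with limma adjusted p from 0.818 to 0.969.

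Kinesins of the spindle act in chromosome movement and in the end of cell division. Kif22, a chromosome-arm motor, read 2438 and 2869 in wild-type and 2171 and 1967 in mutant testis, a log2 change of -0.35 (95% interval -0.69 to -0.00430, limma adjusted p = 0.488). Kif2c and Kif2a belong to the kinesin-13 family, which takes microtubule ends apart. Kif2c read 5204 and 4033 against 3755 and 3640, a change of -0.31, while Kif2a read 1090 and 984.6 against 1271 and 1353, a change of 0.33 (limma adjusted p = 0.524 and 0.644). Both genes had genotypes that did not overlap, Kif2c with the mutant arrays below and Kif2a with them above.

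The remaining division kinesins were less settled. Kif20a, which acts in cytokinesis, read 4201 and 4220 in wild-type and 4540 and 4679 in mutant testis, a change of 0.13. That probe set carries a cross-hybridisation suffix and may not measure Kif20a alone. The second Kif20a probe set, without a suffix, read 818.3 and 1118.2 against 766.2 and 881.6, a change of -0.21. Kif11, which pushes spindle poles apart, read 410.4 and 316.3 against 101.5 and 358.4, and a single Tslc1-/- array set its change of -0.72 (95% interval -2.04 to 0.59). Without Tslc1-/- replicate 1, that change was -0.01. The chromokinesin Kif4 was at -0.02. Over the 6 division kinesins the median was -0.16.

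Minus-end kinesins with a C-terminal motor include Kifc1, a spindle and manchette motor of spermatids. Kifc1 read 196.8 and 182.4 in wild-type and 813.8 and 182.5 in mutant testis. Only Tslc1-/- replicate 1 was high, and without it the change of 0.90 became -0.04. Kifc1 passed the signal filter through that array alone. Kifc3, a motor linked to cell junctions, read 331.5 and 780.4 against 741.6 and 589.6, a change of 0.34 with overlap (limma adjusted p = 0.813).

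All 13 tubulin genes were tested and none passed (limma), while 2 had an unadjusted p under 0.05. Their median log2 change was -0.05, with 9 negative and 4 positive values. Tuba1c read 18153 and 19944 in wild-type and 16535 and 16155 in mutant testis, a change of -0.22 (95% interval -0.41 to -0.02) that missed the threshold (limma adjusted p = 0.416). Tuba1a read 9096 and 10294 against 8520 and 10407, a change of -0.04 with an interval from -0.31 to 0.23. Tuba8 was at 0.04, and Tuba4a, which read 419.8 and 319.8 against 503.6 and 564.9, at 0.49 with an interval from -0.27 to 1.24. A second Tuba4a probe set, too dim to test, read 177.4 and 146.8 against 14.6 and 7.9, the opposite order and again without overlap, so no direction can be given for Tuba4a. The alpha tubulins thus had 2 negative and 2 positive changes, and the sign of Tuba1a turned under quantile normalization. Alpha tubulin genes share most of their coding sequence, and the probe sets of Tuba1a and Tuba1c carry a cross-hybridisation suffix, so signals of these genes may be mixed.

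Beta tubulins had a median change of -0.08, with 6 of 7 negative, the dim pseudogene Tubb2a-ps2 among them. Tubb3, the class III isotype best known from neurons, read 6806 and 8015 in wild-type and 5895 and 6195 in mutant testis, a change of -0.29 (95% interval -0.55 to -0.03, limma adjusted p = 0.424). Its second probe set was at -0.27. Of the 5 brain and nerve markers, 3 were below the signal filter: Snap25 lay between 9.8 and 39.0, and Syt1 at 95.7 and 96.7 in wild-type and at 24.1 and 15.1 in mutant testis. The marker sums were 851.6 and 998.8 against 893.5 and 642.3, and their part in the Tubb3 values was not tested. Tubb5, a widely expressed isotype, read 4700 and 4093 against 3600 and 3744, a change of -0.25 (95% interval -0.54 to 0.03), and its second probe set was at -0.17. For both genes the mutant arrays lay below the wild-type arrays on the probe set with the highest signal. Both probe sets of Tubb3, the second of Tubb5 and those used for Tubb2a and Tubb6 carry a cross-hybridisation suffix. Signals of these genes may thus be mixed, also where 2 probe sets of a gene have the same sign.

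Tubb6 was the beta tubulin with a positive change, 0.19, and read 3561 and 3913 in wild-type and 4092 and 4476 in mutant testis without overlap (limma adjusted p = 0.674). Tubb2a, Tubb4a and Tubb4b were at -0.08, -0.05 and -0.07, and all overlapped between genotypes. The pseudogene Tubb2a-ps2, whose symbol places it among the members, read 410.1 and 98.7 against 73.6 and 240.7, a change of -0.46 with an interval from -2.38 to 1.45. Its mutant mean of 157.1 was under the signal filter, which it passed through the wild-type array at 410.1. With 1 array left out its change ran from -1.28 to 0.35, so no direction can be given for it. The gamma tubulins Tubg1 and Tubg2, which nucleate microtubules at centrosomes, were at 0.17 and -0.03. Tubg1 read 1103 and 944.9 against 1120 and 1187, while Tubg2 ranged from 84.2 to 567.2 within Tslc1+/+ alone.

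**Figure D4:**
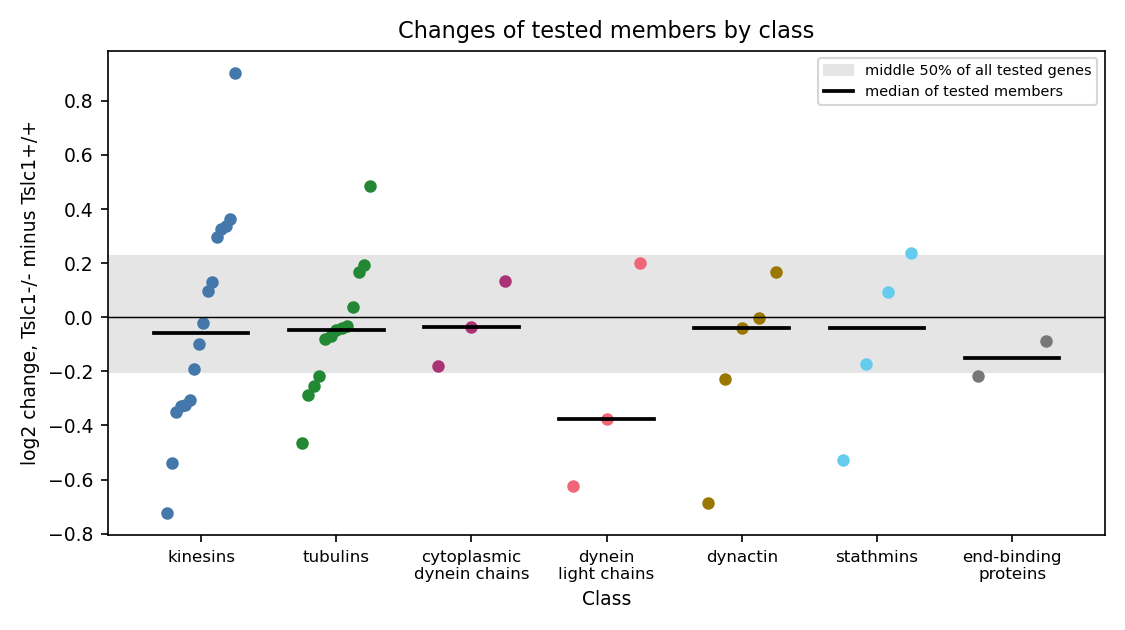
Log2 change of tested members, Tslc1-/- minus Tslc1+/+ (y axis), by class (x axis), with points for genes, black lines for class medians and a grey band for the middle 50% of all tested genes (-0.20 to 0.23). The median of the 3 dynein light chains, -0.38, is the class median that lies below the band.

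Stathmins bind free tubulin dimers and destabilise microtubules. Stmn1, the widely expressed form, read 13624 and 13064 in wild-type and 10843 and 12881 in mutant testis, a log2 change of -0.17 (95% interval -0.41 to 0.06, limma adjusted p = 0.651). Its mutant arrays were both lower, the second by little. Stmn2, Stmn3 and Stmn4, the forms known from neurons, had changes of -0.53, 0.09 and 0.24. Stmn3 read 113.0 and 594.4 against 125.4 and 631.5, so replicate 2 of each genotype was high and the genotypes did not separate. The class median was -0.04.

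End-binding proteins track growing plus ends. Mapre1, or EB1, read 2250.0 and 2203 in wild-type and 2329 and 1882 in mutant testis, a change of -0.09, and its second tested probe set was at -0.37. Mapre3, or EB3, read 1983 and 1621 against 1148 and 2051, a change of -0.22, with 0.38 on its second probe set. Both genes overlapped between genotypes on the probe set used (limma adjusted p = 0.905 and 0.824). Mapre2 was below the signal filter.

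Among members with more than 1 tested probe set, 6 of 11 had changes of the same sign on both and 5 did not. The 5 were Dctn2, Kif20a, Kif9, Mapre3 and Tuba1a. Tubb2a had the same sign on both, at -0.08 and -0.42. Over these 11 genes the median was -0.08 on the first probe sets and -0.21 on the second. Further probe sets below the signal filter also had the opposite sign for Kif1b, Kif3a, Kif5a, Stmn3 and Tuba4a (0.24, 0.22, 0.16, -0.91 and -1.79 in the fit without a filter).

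**Figure D5:**
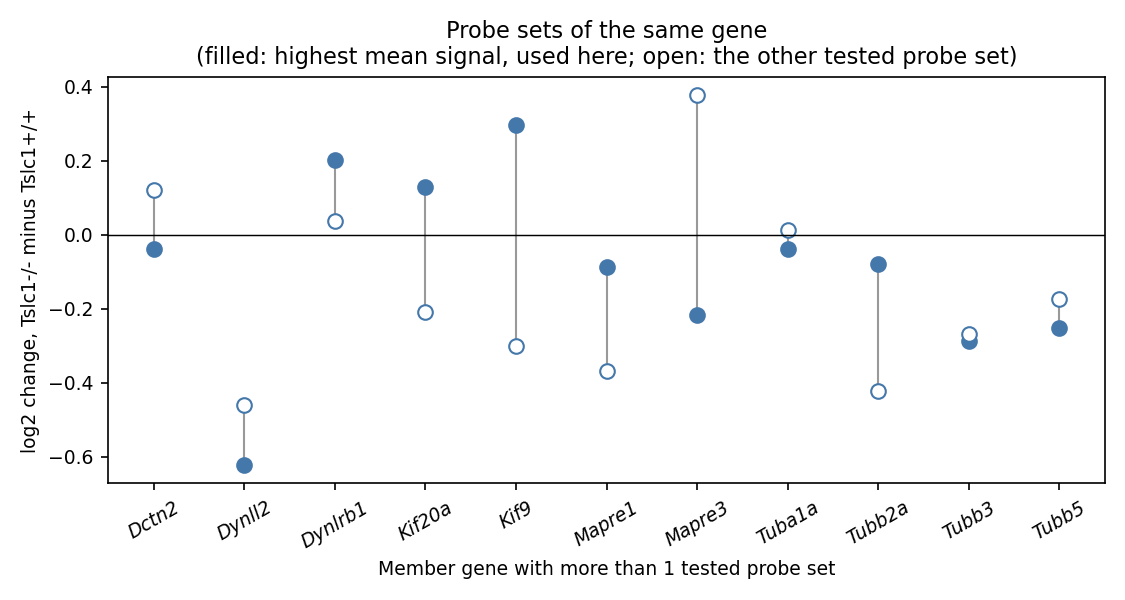
Log2 change, Tslc1-/- minus Tslc1+/+ (y axis), on each tested probe set of the 11 members with more than 1 (x axis), with the probe set of highest mean signal filled. Both Dynll2 points lie below 0, at -0.62 and -0.46, whereas the points of Kif9 and Mapre3 lie on opposite sides of 0.

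The 7 members below the signal filter were Dynlt1b, Dynlt3, Kif1a, Kif3c, Kif5c, Kifc2 and Mapre2, with signals from 19.5 to 431.6. Kif1a, Kif3c and Kif5c are neuronal transport kinesins. Kif3c read 75.8 and 112.8 in wild-type and 295.7 and 121.5 in mutant testis, and Kif5c ranged from 93.1 to 363.3, with Tslc1-/- replicate 2 the highest. Kif1a read 174.2 and 23.2 against 389.8 and 23.4, Kifc2 86.5 and 19.5 against 57.1 and 70.9, and Mapre2 46.9 and 158.4 against 431.6 and 55.8. Single arrays were high for Kif3c, Kif5c and Mapre2, replicate 1 of each genotype was high for Kif1a, and no change at such signals could be read from 2 arrays per genotype.

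Partners of these proteins were followed in a list of 96 genes for motor adaptors, microtubule-associated proteins, tubulin folding factors, gamma tubulin complex subunits and intraflagellar transport. Of the 54 on the array, 49 were tested, and 1 rose and none fell (limma), with a median log2 change of 0.05. Over all tested genes 0.267% were called higher. An unadjusted p under 0.05 was found for 6 of the 49 partners, against 10.5% of all tested genes. Ift46, a subunit of the intraflagellar transport complex that kinesin-2 carries into cilia and flagella, read 3871 and 3534 in wild-type and 6583 and 5931 in mutant testis. Ift46 rose by 68.0%, a log2 change of 0.75 (SE 0.12, 95% interval 0.48 to 1.02, limma adjusted p = 0.0147). By RefSeq annotation Ift46 and Cadm1 both lie on chromosome 9 with 36 protein-coding genes between them, and none of the members lies in that interval.

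The Ift46 call was lost when any 1 array was left out, in fits with 1 array in a genotype. The change then ran from 0.67 to 0.82. Over its alternatives the limma adjusted p ran from 1.59e-04 to 0.505. The low end came with replicate number as a block, where 192 of the 5992 tested genes were called. The high end came without the intensity trend, where 0 were called, so the loss of the Ift46 call there was not particular to it. Other intraflagellar transport genes did not pass. Ift172 read 13859 and 14548 against 11979 and 10400, a change of -0.35 (limma adjusted p = 0.193). Ift20, Ift27, Ift81 and Ift88 had positive changes of 0.24, 0.14, 0.16 and 0.05. Meig1, a manchette protein needed for spermiogenesis, read 11808 and 12842 against 10344 and 10773, a change of -0.22 (limma adjusted p = 0.465). Map1lc3a, a microtubule-associated light chain best known from autophagy, was at -0.26 (limma adjusted p = 0.465). Positive changes of partners with a small unadjusted p were those of Dlgap5, a spindle protein, and Mark2, a kinase of microtubule-associated proteins. Dlgap5 read 215.6 and 175.6 against 653.3 and 464.8, a change of 1.30 (limma adjusted p = 0.270), and Mark2 read 6567 and 7517 against 8216 and 9877, a change of 0.36 (limma adjusted p = 0.301). Both had mutant arrays above both wild-type arrays and missed the threshold. The wild-type mean of Dlgap5, 195.6, was under the signal filter, which Dlgap5 passed through its mutant arrays. Among chaperonin subunits that fold tubulin, Cct4 was at -0.14, Cct5 at -0.18, Cct3 at 0.07, Cct7 at -0.03, Cct8 at -0.33 and Tcp1 at 0.26, none past the test. Kifap3, which joins kinesin-2 to its cargo, was at -0.33 and Pafah1b1, the dynein regulator LIS1, at 0.26, neither past the test.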

How the data were processed

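Per the series' design text, the authors computed each probe set's intensity with Affymetrix Microarray Suite 5.0 (MAS5, as the submitters' processing notes also say) and scaled every array globally to a target of 1000. The deposited intensity values are linear. The mean after trimming was 1001 on each array. Global scaling hides any change in total RNA. Detection calls were not used here, and the number of arrays limits the precision.

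Probe sets were named by the platform annotation and checked by Entrez identifier against RefSeq GRCm38.p6, where all 53 members matched. Of 12422 non-control probe sets, 10833 had 1 gene, 396 several and 1193 none. From the several-gene probe sets, 5 with matching symbols were left out, and a further gene is not reported here.

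Signals were used as log2(signal + 50), so changes of dim genes are understated. The 7975 probe sets with a mean signal of at least 200 were fitted with limma 3.58.1 in R 4.3.3 (lmFit, eBayes with an intensity trend), two-sided, at a Benjamini-Hochberg threshold of 0.05. A permutation test of 2 against 2 cannot give p under 0.333. The fit was tested on simulated data. A class is described by counts and its median, beside those over all genes, represented likewise by 1 probe set each.

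The members and lists were chosen with earlier results of these data known. Named genes followed a rule: Cadm1, called genes, the brightest, smallest-p and most changed members per class, all members of classes with at most 5 tested, and non-overlapping members with a change of at least 0.5. Other members, partner genes that were not called, single signals of untested members, promoter windows and signal bands were chosen after their values were seen.

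Marker lists with no called gene were those of spermatogonia (median log2 change 0.15), Sertoli cells (0.10), Leydig cells (0.03), macrophages (0.24), erythrocytes (0.11), brain and nerve (-0.42), cilia and epididymis (-0.42) and fat (-0.38). Of the meiotic spermatocyte markers 1 fell (list median 0.06), of the peritubular myoid markers 1 fell (-0.18), and of the endothelial markers 1 rose (-0.45). The elongating and round spermatid lists had medians of -0.46 and -0.30.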

Additional observations from a re-analysis of the deposited data

How the results depend on the processing

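Alternatives were other pseudocounts (10 and 200), no signal filter or one of 500, no intensity trend, quantile normalization and equal array medians. Others were probe sets without a suffix letter in their name, the second probe set of a gene, the replicate block, and each array left out. Any such letter counted as a suffix, whether or not it marks shared probes. The number of members called lower, 1 as reported, was 0 without the signal filter, without the intensity trend, with equal array medians, without suffixed probe sets (which drops the Dynll1 probe set), on second probe sets and with any 1 array left out (0 in each case). It was 2 with the replicate block, Dynll1 and Dynll2 (limma adjusted p = 0.00235 and 0.0222). Of all 5992 tested genes, the block called 192, against 74 in the fit as reported. Without the intensity trend 0 of the 5992 were called, so calls lost there are not particular to a gene. Deviations of same-numbered arrays correlated at -0.001, so the numbers were not taken to pair the arrays. No member was called higher under any alternative run. The members' median change ranged from -0.132 to -0.0254 with 1 array left out and was -0.21 on the second probe sets of 11 genes, whose first probe sets had a median of -0.08. The count of called partner genes, 1 as reported, was 0 without the intensity trend and with any array left out, and 2 with the replicate block (Ift46 and Ift172). The partner list was not run on second probe sets. Of 442 named-gene values under alternatives, none called changed sign, 8 moved beyond the spread between arrays, 7 lost and 1 gained the call, Dynll2 under the block. Dynll1 was the only member called in the fit as reported. Of the 46 tested members, 6 changed sign when either wild-type array was left out and 9 when either mutant array was. On second probe sets 5 of 11 changed sign. Of 96 class medians, 19 moved. The light chain median was 0.20 without the filter, where the dim Tctex-type genes enter. No scaling moved the median of all genes by 0.1. Dim members bound only large changes, as their intervals show. Apart from the smaller sets of probe sets or arrays named here, causes were not tested.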
